A study of Mus musculus with 12 samples.

Results

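The genes described here are 30 mouse genes of cholesterol synthesis, sterol sensing, sterol transfer and cholesterol efflux, chosen from a list of names. All 30 were among the 46095 gene symbols of the count table, and all 30 passed the filter on low counts that left 17530 genes for testing. RNA-seq had been made from mouse kidney cortex in 3 groups of 4 libraries. The groups were NC, normal controls without treatment; DN, diabetic nephropathy, which is the kidney disease of diabetes; and DN+NaB, diabetic nephropathy with sodium butyrate, the salt of a short-chain fatty acid. All 3 groups carried the strain label C57BL/6 and an age of 12 weeks. The labels used here do not say how diabetes was brought about, nor give a dose, route or duration of butyrate, so neither the stage of disease nor the exposure can be stated. The design text counts 4 mice in each group. Which mouse gave which library is not labelled, so p-values here measure only the spread between these libraries, which may be technical.

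Cells build cholesterol from acetyl-CoA, first through mevalonate to squalene and then through lanosterol to cholesterol. The transcription factor SREBP-2 turns these enzymes on. It is held in the endoplasmic reticulum by SCAP and the INSIG proteins when sterols are plentiful, and is carried to the Golgi and cut free when they are scarce. Surplus cholesterol is esterified for storage or exported. Oxysterols bind the liver X receptors (LXR), which turn on the exporters ABCA1 and ABCG1 and the ubiquitin ligase MYLIP, which marks lipoprotein receptors for degradation.

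Libraries held 58394975 to 70674015 counts (median 63588713), and no pair of libraries agreed within sampling noise. The text of the extraction protocol names prefrontal cortex, so markers were summed in CPM, the counts scaled to a common effective library size. The 7 proximal tubule markers summed to 18700 to 33420 CPM across libraries, and 6 brain markers to at most 1.91 CPM, with Snap25 and Mog at 0 counts in all 12. The adrenal gland, a cholesterol-rich neighbour of the kidney, was looked for with 10 markers: they summed to 2.64 to 5.37 CPM, and Cyp11b2 and Cyp21a1 had 0 counts throughout. Some marker sums differed between groups. The sum of 6 markers of the straight (S3) part of the proximal tubule was lower in both disease groups (summed CPM: NC 2520 to 3593, DN 1013 to 1605, DN+NaB 843 to 1364), although 1 of the 6 rose. So were the sums of 5 thick ascending limb markers (NC 7635 to 13040, DN 5190 to 7258, DN+NaB 5257 to 6772) and of 8 T and NK cell markers (NC 15.1 to 24.1, DN 4.51 to 13.95, DN+NaB 2.06 to 3.24). The sum of 5 endothelium markers was lower in both disease groups as well (NC 427 to 467, DN 334 to 405.5, DN+NaB 367 to 416). In bulk tissue, fewer cells of a type and less RNA per cell cannot be told apart. The part of these shifts in the results below was not tested.

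The first comparison asked how these genes differed between diseased and normal cortex. A gene was called when its adjusted p was under 0.05 over all 17530 genes (edgeR quasi-likelihood test, two-sided). Of the 30 genes, 3 fell in DN, Hmgcs1, Idi1 and Cyp51, which is 10.0% of them, beside 4.42% of all genes called lower. Another 2 rose, Sqle and Nsdhl, which is 6.67%, beside 3.82% of all genes called higher. All 5 are enzymes of cholesterol synthesis, and they went both ways within 1 pathway. The other 25 were not called. All 4 DN libraries lay below all 4 NC libraries for 3 genes (10.0%, beside 7.49% of all genes) and above them for 1 gene, Nr1h2 (3.33%, beside 5.86%). The median log2 fold change was -0.08 over the 30 genes, -0.25 over the 18 synthesis enzymes and 0.01 over all genes tested.

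**Figure D1:**
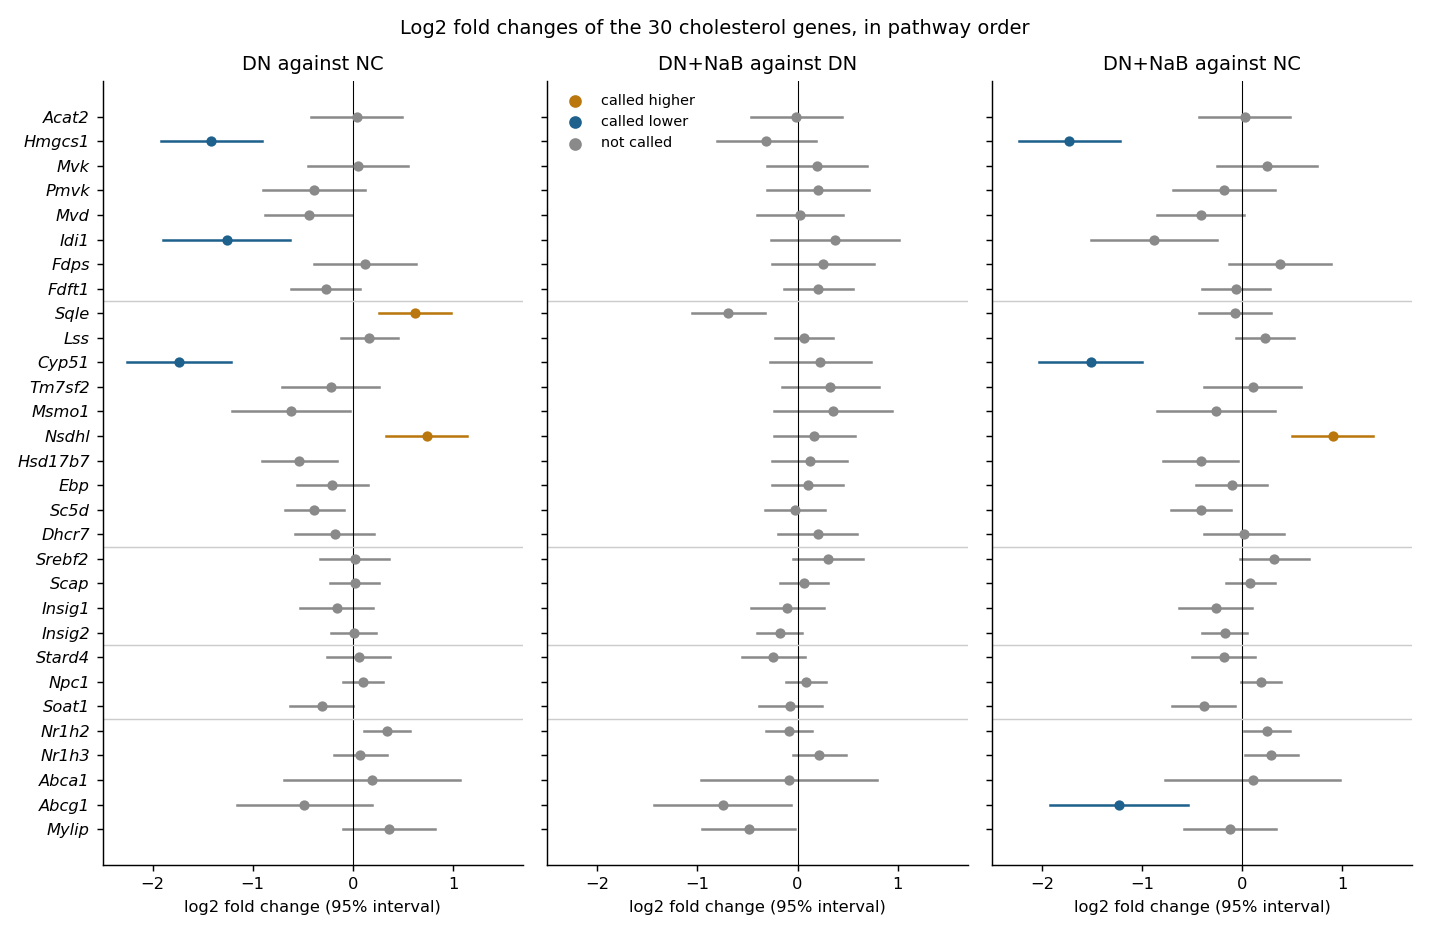
Log2 fold changes of the 30 genes (x axis) in pathway order (y axis), in 1 panel for each comparison; points are edgeR estimates from 4 libraries a group and lines are 95% intervals. Hmgcs1 and Cyp51 lie farthest to the left in both comparisons with NC, Nsdhl lies to the right in both, and no gene is called between DN+NaB and DN.

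Before the single values, the promoters of 3 of the called enzymes are shown, 2 that fell and 1 that rose, because this pathway is read through short promoter elements. RefSeq promoters of GRCm38.p6 were matched by symbol for 24 of the 30 genes. The 250 bases before the start site were searched on both strands for the core of the sterol regulatory element (SRE), TCACNCCAC, the NF-Y box CCAAT and the Sp1 box GGGCGG. Each motif was counted on its own, and none of the printed matches overlap. Shown are 150 bases 5′ to 3′ on the gene's strand, with capitals marking matches on either strand. The Hmgcs1 stretch is chr13:119690201-119690350 on the plus strand, ending at the start site. The Cyp51 stretch is chr5:4104747-4104896 on the minus strand and stops 49 bases before the RefSeq start, and that of Nsdhl is chrX:72918371-72918520 on the plus strand. The 3 were picked after their values were seen.

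Hmgcs1: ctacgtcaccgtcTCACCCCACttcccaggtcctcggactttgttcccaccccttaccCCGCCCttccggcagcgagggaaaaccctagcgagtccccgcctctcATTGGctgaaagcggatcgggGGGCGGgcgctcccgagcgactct
Cyp51: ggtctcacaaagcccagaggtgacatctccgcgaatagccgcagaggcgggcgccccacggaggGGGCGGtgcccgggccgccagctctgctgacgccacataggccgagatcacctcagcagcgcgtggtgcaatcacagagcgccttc
Nsdhl: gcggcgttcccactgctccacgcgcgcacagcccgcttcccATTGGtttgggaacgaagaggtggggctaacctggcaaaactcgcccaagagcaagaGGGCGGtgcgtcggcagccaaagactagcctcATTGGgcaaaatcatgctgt

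Hmgcs1, which fell, was the only one of the 24 genes with the SRE core in these letters, at -137 to -129 from its start site. That core was present in 1.05% of the 32851 RefSeq promoter windows of this length, and in 1.22% of their 27025 genes. The NF-Y box was in 19 of the 24 and in 14 of the 15 synthesis enzymes with a window, beside 37.5% of all those genes. The Sp1 box was in 20 of the 24 and in 14 of those 15, beside 35.4%. These background shares cover all genes with a window and not only the 17530 tested, while the 30 listed genes were all tested. They are thus not a like background. Nsdhl, which rose, shared both boxes with Hmgcs1, and the NF-Y match of Cyp51 lay outside its printed stretch. The LXR element searched, a pair of AGGTCA in the same direction and 4 bases apart, was in none of the 24 and in 0.0148% of all genes with a window. A match describes these letters and is no measure of binding, and a missing match says only that the letters are not in the window.

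Of the 8 enzymes between acetyl-CoA and squalene, Hmgcs1 and Idi1 fell in DN. Hmgcs1, the synthase that makes HMG-CoA, had 538, 438, 465 and 489 CPM in NC replicates 1 to 4, against 235, 196, 118 and 175 in DN, and 181, 181, 85.4 and 136.5 in DN+NaB. Every library of both disease groups was below every NC library, while DN and DN+NaB overlapped. The mean was 482 ± 42.3 CPM in NC and 181 ± 48.8 in DN (SD, n = 4 each), a log2 fold change of -1.41 ± 0.23 (SE, adjusted p = 0.00197), or 2.67-fold lower. Idi1, the isomerase that interconverts the building blocks of isoprenoids, had 2.235, 1.935, 2.59 and 2.47 CPM in NC, then 1.10, 1.13, 1.01 and 0.613 in DN and 0.732, 1.87, 1.33 and 1.06 in DN+NaB. Its DN libraries all lay below NC, and in DN+NaB replicate 2 stood just under the lowest NC library. Idi1 fell by 1.26 ± 0.30 on the log2 scale in DN (adjusted p = 0.0175), on few reads (125 to 178 counts in an NC library, 38 to 70 in a DN library). A near-identical copy, Gm35570, had 3 to 77 counts in a DN library, and a copy identical where aligned, Gm13502, had 0 counts throughout. How shared reads were assigned is not known, which leaves the Idi1 level and its fall uncertain. Without NC replicate 3 the adjusted p of Idi1 was 0.0533.

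The other 6 enzymes of this stretch were not called in any comparison. Acat2, which joins acetyl-CoA units and shares sequence with Acat3, had 77.4 ± 13.0 CPM in NC, against 79.4 ± 24.6 in DN and 78.7 ± 13.9 in DN+NaB. The mevalonate kinase Mvk had 18.1 ± 2.37, 18.8 ± 6.501 and 21.5 ± 3.38 CPM in the same order, and the phosphomevalonate kinase Pmvk 10.3 ± 2.50, 7.87 ± 2.40 and 9.06 ± 1.01 CPM. Mvd, the decarboxylase after them, had 41.7 ± 6.31, 30.7 ± 8.44 and 31.3 ± 5.61 CPM, and its DN difference of -0.44 ± 0.20 missed the threshold (adjusted p = 0.216). Mvd was called lower in DN+NaB against NC without DN replicate 4 (adjusted p = 0.0411). Fdps, which makes farnesyl diphosphate, had 23.7 ± 6.80, 25.8 ± 5.94 and 30.8 ± 7.97 CPM, and Fdft1, the squalene synthase, 33.6 ± 4.96, 27.8 ± 4.63 and 32.1 ± 5.61 CPM. The fitted difference of these 6 between DN and NC was at most 1.36-fold, that of Mvd.

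Past squalene, the neighbouring steps differed in direction. Cyp51, the lanosterol demethylase, had 158.5, 139, 149 and 180.4 CPM in NC, beside 58.04, 52.6, 52.55 and 24.8 in DN and 51.2, 76.6, 47.9 and 44.4 in DN+NaB. Every library of both disease groups was below the lowest NC library, and DN replicate 4 was the lowest of all 12. The mean went from 157 ± 17.7 in NC to 47.0 ± 15.02 CPM in DN, a log2 fold change of -1.74 ± 0.24 (adjusted p = 0.000539) and 3.33-fold lower. Hmgcs1 and Cyp51 were called lower against NC, in DN and in DN+NaB, under all 19 alternatives run.

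Sqle, the squalene epoxidase and a rate-limiting step of this stretch, had 71.2, 69.5, 65.0 and 65.0 CPM in NC, then 135.4, 70.6, 104.2 and 106 in DN and 48.5, 72.0, 70.4 and 66.45 in DN+NaB. DN replicates 1, 3 and 4 were above all other libraries, and DN replicate 2 lay in the NC range. Sqle rose by 0.62 ± 0.17 on the log2 scale in DN (adjusted p = 0.0369). The call was lost in 10 of the 19 alternatives, with adjusted p up to 0.105: library size scaling, the 2 groups alone, the replicate block, and without any 1 NC replicate or DN replicate 1, 3 or 4. Nsdhl, a dehydrogenase that removes the C4 methyl groups of sterols, had 37.9, 45.5, 46.0 and 34.6 CPM in NC, against 80.0, 84.6, 66.25 and 42.2 in DN and 67.35, 89.5, 81.9 and 67.9 in DN+NaB. DN replicate 4 lay among the NC values, and the other 7 disease libraries lay above all of NC. Nsdhl rose by 0.74 ± 0.19 in DN (adjusted p = 0.0266), but was not called in 6 of the 19 alternatives, with adjusted p up to 0.09: the 2 groups alone, and without NC replicate 1, 2 or 4 or DN replicate 1 or 2.

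Hsd17b7, the sterol 3-ketoreductase that works beside Nsdhl, had 27.65, 24.35, 22.7 and 30.9 CPM in NC, beside 25.4, 15.2, 18.8 and 13.5 in DN and 20.1, 21.4, 20.0 and 17.8 in DN+NaB. DN replicate 1 lay in the NC range and the difference missed the threshold (-0.53 ± 0.18, adjusted p = 0.08). Sc5d, the sterol desaturase near the end of the pathway, had 32.15, 30.1, 30.2 and 37.1 CPM in NC, then 31.35, 25.6, 21.8 and 20.45 in DN and 22.4, 27.5, 24.6 and 23.0 in DN+NaB. Its DN difference was -0.38 ± 0.14 (adjusted p = 0.113). Both were called lower in DN without DN replicate 1, at adjusted p = 0.0102 for Hsd17b7 and 0.0297 for Sc5d. Library size scaling also called both lower in DN, and DESeq2 called Hsd17b7 lower. Hsd17b7 was called lower in DN+NaB against NC with the 2 groups alone. Without DN replicate 1, Msmo1 was called lower in DN as well (adjusted p = 0.0435). Msmo1, the C4-methyl oxidase, had 18.2 ± 3.80 CPM in NC, against 11.8 ± 4.77 in DN and 15.1 ± 4.83 in DN+NaB.

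Lss, which folds squalene epoxide into lanosterol, had 27.35 ± 2.61, 30.6 ± 4.44 and 32.0 ± 4.44 CPM in NC, DN and DN+NaB. Tm7sf2, a sterol reductase, had 10.1 ± 2.28, 8.64 ± 2.71 and 10.9 ± 1.60 CPM, and Ebp, the sterol isomerase, 83.5 ± 12.7, 72.4 ± 16.0 and 77.8 ± 11.2 CPM. Dhcr7, the reductase of a last step, had 48.6 ± 1.69, 42.8 ± 12.8 and 49.2 ± 5.43 CPM. None of these 4 was called in any comparison.

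**Figure D2:**
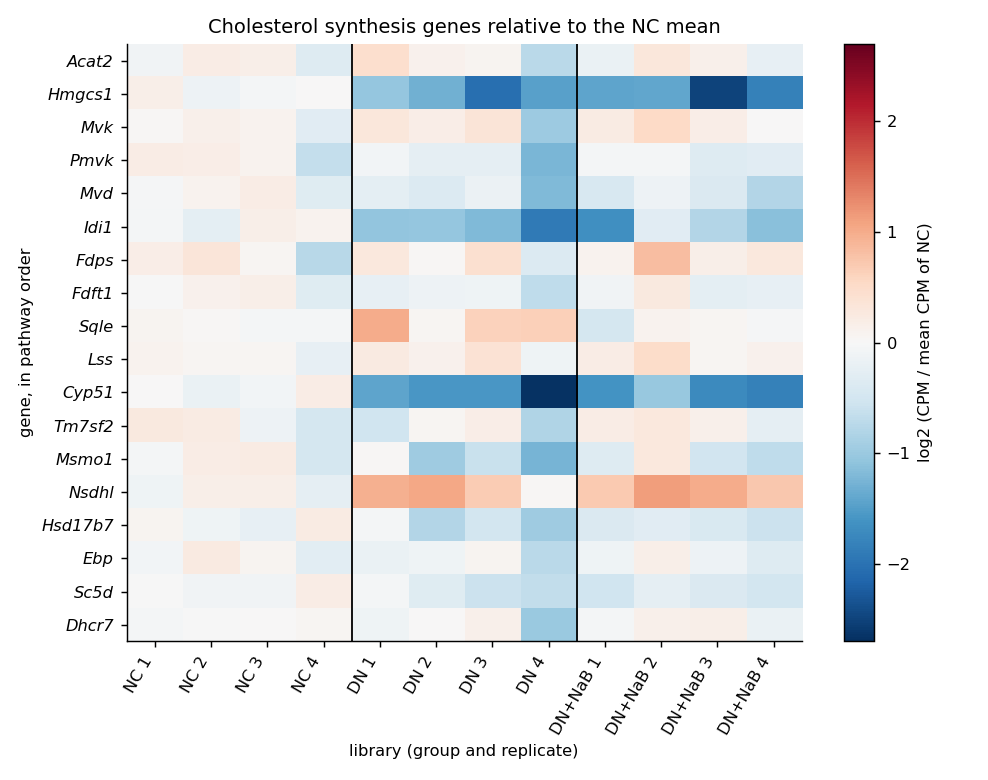
Heat map of the 18 synthesis enzymes (y axis, pathway order) in the 12 libraries (x axis), coloured by log2 of each CPM over the NC mean, blue below and red above. Hmgcs1, Idi1 and Cyp51 are blue across both disease groups and Nsdhl is red in both, palest in DN 4 near the NC mean, while DN 4 is the bluest column of DN.

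The synthesis enzymes also differed among libraries of 1 group, a count made after the values were seen. DN replicate 4 was the lowest of the 4 DN libraries for 16 of the 18 enzymes, where it was the lowest for 33.4% of all genes. Its median deviation from the DN mean was -0.54 on the log2 scale over the 18 enzymes and -0.007 over all genes. The exceptions were Sqle and Hmgcs1. NC replicate 4 was likewise the lowest of its group for 11 of the 18 (35.5% of all genes), with a median deviation of -0.25. DN+NaB replicate 4 was the lowest of its group for 9 of the 18 (26.1% of all genes), with a median deviation of -0.16. DN+NaB replicate 2 was the highest of its group for 17 of the 18, where it was highest for 25.8% of all genes. The summed proximal tubule markers were lowest of all 12 in DN replicate 4 (18700 CPM) and highest in DN+NaB replicate 2 (33420 CPM). DN replicate 4 also held 283 summed CPM of 10 macrophage markers, beside 147 to 169 in the other DN libraries, 413 of 5 fibroblast markers and 247 of 5 erythroid markers. Without DN replicate 4, the median over the 18 enzymes in DN against NC was -0.13 in place of -0.25. Hmgcs1 (-1.41), Idi1 (-1.11), Cyp51 (-1.55) and Nsdhl (0.89) were still called without it, and Sqle was not (0.59, adjusted p = 0.0641). The part of cell makeup in these library differences was not tested.

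The 4 genes of sterol sensing were not called in any comparison. Srebf2, which encodes SREBP-2, had 189, 189.5, 173 and 145.5 CPM in NC, beside 199, 176, 212 and 118 in DN and 207, 255, 200.2 and 209 in DN+NaB. All DN+NaB libraries were above all NC libraries, and DN overlapped both. Scap, its escort protein, had 233 ± 23.1 CPM in NC, then 236 ± 30.5 in DN and 247 ± 15.5 in DN+NaB, and its DN interval of -0.23 to 0.26 on the log2 scale was among the narrower ones. Insig1, a retention protein that SREBP-2 also turns on, had 28.9 ± 5.22, 25.8 ± 4.86 and 24.05 ± 4.31 CPM. Insig2, the second retention protein, had 24.4, 22.6, 22.3 and 24.85 CPM in NC, against 22.9, 21.6, 22.9 and 27.2 in DN and 21.8, 20.9, 21.5 and 19.4 in DN+NaB. The DN+NaB libraries of Insig2 all lay below NC, by a small step (-0.17 ± 0.10, adjusted p = 0.296).

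Sterol transfer and storage genes were not called either. Stard4, a soluble sterol carrier, had 49.6 ± 9.74, 51.5 ± 9.21 and 43.6 ± 2.24 CPM in NC, DN and DN+NaB. Npc1, which moves cholesterol out of lysosomes, had 54.6 ± 5.38, 58.5 ± 1.99 and 62.1 ± 2.15 CPM. Soat1, which esterifies cholesterol for storage, had 43.4 ± 9.38, 35.0 ± 4.64 and 33.3 ± 1.19 CPM. Its difference from NC was -0.31 ± 0.15 in DN (adjusted p = 0.229) and -0.38 ± 0.15 in DN+NaB (adjusted p = 0.0924).

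Among LXR and efflux genes, none was called in DN against NC. Nr1h2, the widely expressed receptor LXR-beta, had 71.9, 73.0, 79.3 and 75.6 CPM in NC, beside 90.75, 88.4, 116 and 83.7 in DN and 82.85, 91.3, 91.1 and 91.6 in DN+NaB. All 8 disease libraries were above all 4 NC libraries, by 0.34 ± 0.11 in DN (adjusted p = 0.0696) and 0.25 ± 0.11 in DN+NaB (adjusted p = 0.129). In DN it was called higher by DESeq2 (adjusted p = 0.0315) and without DN replicate 4 (adjusted p = 0.0308). Nr1h3, the receptor LXR-alpha, had 56.2, 56.2, 60.3 and 44.6 CPM in NC, then 55.8, 56.7, 69.0 and 47.0 in DN and 68.2, 67.6, 65.4 and 64.3 in DN+NaB. DN+NaB lay above all of NC (0.29 ± 0.12, adjusted p = 0.13), and DN overlapped both.

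Abcg1, an exporter that loads cholesterol onto high-density lipoprotein, was called lower in DN+NaB against NC. It had 32.8, 28.25, 38.25 and 19.0 CPM in NC, against 15.7, 13.9, 17.15 and 37.8 in DN and 16.9, 9.42, 11.7 and 12.4 in DN+NaB. DN replicates 1 to 3 were below all of NC, and DN replicate 4 was near the top of NC. The DN difference was -0.48 ± 0.31 (adjusted p = 0.412) with that library and -0.94 (adjusted p = 0.0176) without it. Abca1, which loads cholesterol onto lipid-poor apolipoprotein, had 82.0, 103, 97.8 and 131 CPM in NC, beside 61.7, 82.2, 89.7 and 238 in DN and 110, 58.05, 121 and 156 in DN+NaB. It overlapped between all groups, and without DN replicate 4 its DN difference changed sign, from 0.19 ± 0.40 to -0.43, uncalled in each. Mylip had 86.6 ± 10.5 CPM in NC, then 111 ± 37.7 in DN and 79.4 ± 15.7 in DN+NaB.

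The macrophage is a cell in which both exporters are well studied, and 10 of its markers were set beside Abcg1. Their sum ran from 217 to 311.5 CPM over the NC libraries, from 147 to 283 over DN and from 134 to 164 over DN+NaB. None of the 10 was at 0 counts in all libraries. DN replicate 4 was the highest of DN for this sum and for both exporters, and also for the fibroblast (413 CPM) and erythroid (247 CPM) sums. Within DN+NaB, replicate 1 had the lowest macrophage sum (134 CPM) and the highest Abcg1 (16.9 CPM). Of the 10 macrophage markers, 2 fell in DN, beside 4.42% of all genes, and 7 in DN+NaB against NC, beside 8.94%. The part of macrophages in the Abcg1 values was not tested.

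**Figure D3:**
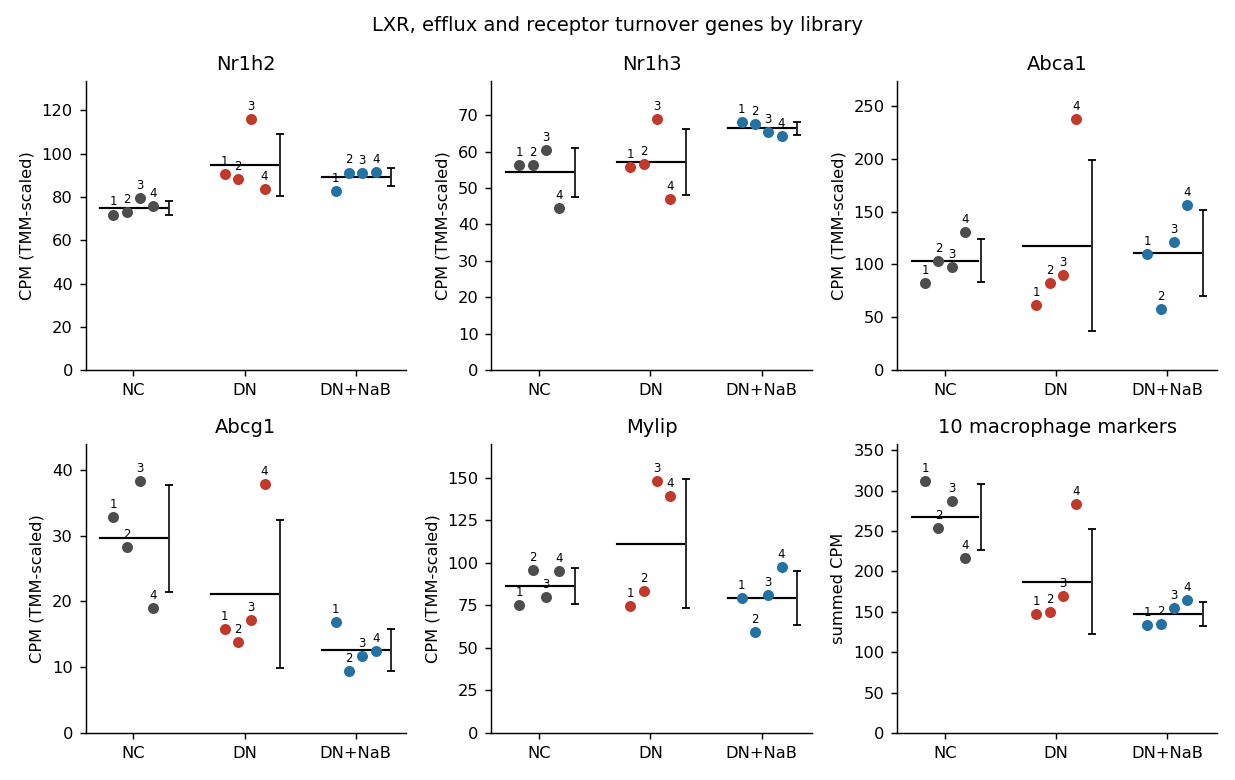
CPM of the 5 LXR, efflux and receptor turnover genes and summed CPM of 10 macrophage markers (y axes from 0) by group (x axis); points are libraries with their replicate number, lines are means and bars the SD of 4. DN 4 stands above the other DN libraries for Abca1, Abcg1 and the macrophage markers, and Nr1h2 lies higher in all 8 disease libraries than in NC.

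The second comparison set DN+NaB beside DN. It shares the DN libraries with the first, so a value that is high in DN by chance enters both with opposite signs. None of the 30 genes was called by edgeR, and none had groups that did not overlap. Across all genes, 0.0114% were called higher and 0.0114% lower, 2 genes each way, and groups did not overlap for 2.13% (higher) and 2.44% (lower). At an unadjusted p under 0.05 there were 3 of the 30 (10.0%), Sqle, Abcg1 and Mylip, beside 9.84% of all genes. DESeq2 called 1 of the 30, Sqle (adjusted p = 0.0222).

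Sqle was 64.3 ± 10.8 CPM in DN+NaB, 104 ± 26.5 in DN and 67.7 ± 3.16 in NC, with a log2 difference of -0.69 ± 0.17 between DN+NaB and DN (edgeR adjusted p = 0.164). DN replicate 2, at 70.6 CPM, lay inside the DN+NaB range, and the other 3 DN libraries lay above it. Abcg1 differed by -0.75 ± 0.32 (adjusted p = 0.472) and Mylip by -0.49 ± 0.21 (adjusted p = 0.48). For the 3 enzymes that fell in DN, the 95% interval of the difference between DN+NaB and DN was -0.80 to 0.18 for Hmgcs1, -0.26 to 1.01 for Idi1 and -0.28 to 0.73 for Cyp51, each including 0. For Nsdhl it was -0.23 to 0.57. With 4 libraries a group, differences inside these intervals are not excluded.

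The 18 synthesis enzymes had a median log2 difference of 0.18 between DN+NaB and DN, with 14 of 18 above 0, beside -0.02 for all genes. That median rested on DN replicate 4 and, in part, on DN+NaB replicate 2. Without DN replicate 4 it was -0.0010, with 9 of 18 above 0, and without DN+NaB replicate 2 it was 0.07, with 12 of 18 above 0.

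The third comparison, DN+NaB against NC, asked how far butyrate-treated diseased cortex stood from normal. It shares NC with the first and DN+NaB with the second. One gene, Nsdhl, rose (3.33%, beside 6.62% of all genes) and 3 fell, Hmgcs1, Cyp51 and Abcg1 (10.0%, beside 8.94%), so both shares were near or under the background. Groups did not overlap for 4 genes that were higher (13.3%, beside 14% of all genes) and 7 that were lower (23.3%, beside 13.9%). The first 4 were Nsdhl, Srebf2, Nr1h2 and Nr1h3, and the 7 were Hmgcs1, Idi1, Cyp51, Hsd17b7, Sc5d, Insig2 and Abcg1. The median log2 fold change was -0.09 over the 30 genes and -0.01 over all genes.

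Hmgcs1 had 146 ± 45.5 CPM in DN+NaB, 3.31-fold lower than in NC (log2 fold change -1.73 ± 0.24, adjusted p = 0.000324). Cyp51 had 55.0 ± 14.6 CPM and was 2.85-fold lower (-1.51 ± 0.24, adjusted p = 0.000982). Nsdhl, at 76.7 ± 10.9 CPM beside 41.0 ± 5.65 in NC, was 1.87-fold higher (0.90 ± 0.19, adjusted p = 0.00531), and this call held under all 19 alternatives. Abcg1 fell from 29.6 ± 8.14 to 12.6 ± 3.13 CPM (-1.23 ± 0.32, adjusted p = 0.0201). Its call was lost without NC replicate 3 or DN+NaB replicate 2, 3 or 4, with adjusted p up to 0.0637. Idi1 was at 1.25 ± 0.48 CPM and just missed the threshold (-0.88 ± 0.29, adjusted p = 0.0559), as did Sc5d (-0.41 ± 0.14, adjusted p = 0.0616). Idi1 and Sc5d were each called lower here in 6 of the 19 alternatives. Both were called with library size scaling, a filter of at least 1 CPM in 4 libraries, DESeq2 and the 2 groups alone. Idi1 was also called without DN replicate 4 or DN+NaB replicate 2 (adjusted p = 0.0309 and 0.0271), and Sc5d without DN replicate 1 or 4 (adjusted p = 0.0358 and 0.0344). The 2 comparisons with NC had called values side by side for Hmgcs1, Cyp51 and Nsdhl, and Sqle, at -0.07 ± 0.17 (adjusted p = 0.811), stood close to NC in DN+NaB.

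**Figure D4:**
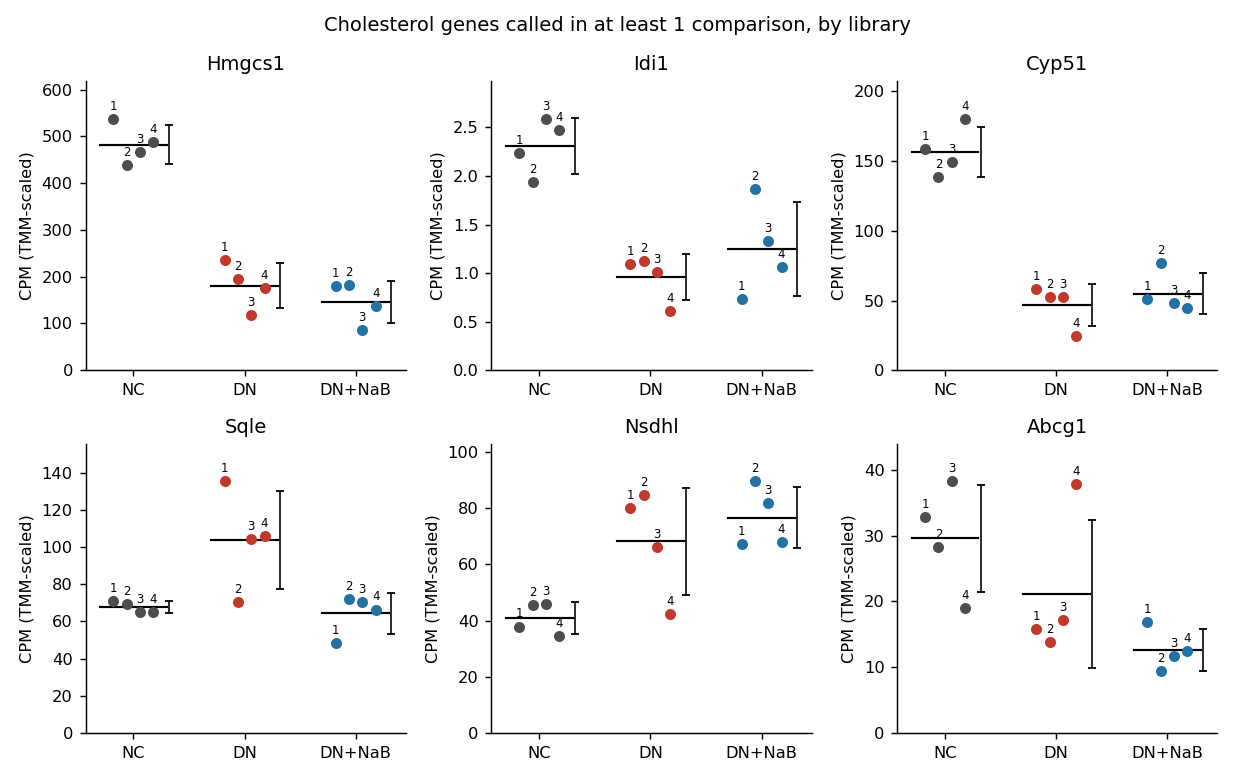
CPM (y axes from 0) of the 6 genes called in at least 1 comparison, by group (x axis); points are libraries with their replicate number, lines are means and bars the SD of 4. Hmgcs1 and Cyp51 in both disease groups lie below every NC library, Nsdhl in DN+NaB lies above every NC library, and Sqle lies above every NC library in 3 of the 4 DN libraries.

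Around these 30 genes, 92 others of the pathway were listed and 89 were tested. In DN, 3 rose and 8 fell, in DN+NaB against DN none was called, and in DN+NaB against NC 7 rose and 13 fell. Over all genes, 3.82% were called higher and 4.42% lower in DN, and 6.62% and 8.94% in DN+NaB against NC, so the rises were near the background. In the branch that uses mevalonate products for isoprenoids, Pdss1, which starts the side chain of coenzyme Q, was the 1 of 14 genes called in DN, with a log2 fold change against NC of -0.70 ± 0.17 in DN and -0.67 ± 0.17 in DN+NaB. Pggt1b, a subunit of a prenyltransferase (-0.72 ± 0.20), and Fnta, a subunit of farnesyltransferase (0.38 ± 0.11), were called in DN+NaB against NC.

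Uptake and lysosomal release had 16 genes, with 1 up and 1 down in DN. Lipa, the lysosomal acid lipase that frees cholesterol from its esters, rose by 0.96 ± 0.16 in DN, from 242 ± 32.9 to 469 ± 103.5 CPM (adjusted p = 0.00197), and by 0.61 ± 0.16 in DN+NaB. Cd36, a scavenger receptor and fatty acid transporter, fell from 123 ± 46.8 CPM in NC to 24.5 ± 8.46 in DN and 18.8 ± 3.64 in DN+NaB (-2.33 ± 0.30 and -2.71 ± 0.30 on the log2 scale). In DN+NaB against NC, Lamp1, a lysosomal membrane protein, also rose by 0.45 ± 0.13 and Scarb1, a receptor of high-density lipoprotein, fell by 0.53 ± 0.15. Of 19 sterol transfer proteins, Cav1, the caveolae protein, fell in both comparisons with NC (-0.48 ± 0.11 in DN, -0.70 ± 0.11 in DN+NaB). In DN+NaB against NC the oxysterol-binding family members Osbpl9 fell (-0.64 ± 0.14) and Osbpl5 rose (0.48 ± 0.14).

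Of 12 tested LXR partners, LXR targets and other transporters, 1 rose and 3 fell in DN, beside 3.82% and 4.42% of all genes. Rxrg, a partner receptor of LXR, rose by 2.81 ± 0.40 in DN and 3.78 ± 0.41 in DN+NaB, from few reads. It had 0.18 ± 0.09 CPM in NC (6 to 20 counts a library), 1.27 ± 0.27 in DN and 2.48 ± 0.93 in DN+NaB. The LXR targets Lpl (lipoprotein lipase), Scd1 (stearoyl-CoA desaturase) and Pltp (phospholipid transfer protein) fell in both comparisons with NC. Lpl differed by -1.79 ± 0.17 in DN and -1.85 ± 0.17 in DN+NaB, Scd1 by -1.47 ± 0.20 and -1.17 ± 0.20, and Pltp by -1.03 ± 0.18 and -0.94 ± 0.18. Adipocytes express Cd36, Lpl and Scd1, and the sum of 5 adipocyte markers was lower too, at 16.3 to 18.8 CPM over NC, 5.31 to 14.4 over DN and 4.18 to 9.29 over DN+NaB, with none at 0 in all libraries. That sum was mostly Fabp4, at 270 to 1238 counts a library. Adipoq, Plin1, Cidec and Lep had at most 40, 31, 29 and 13 counts. The part of adipocytes in these falls was not tested. Abca7, a transporter related to Abca1, rose by 0.43 ± 0.12 in DN+NaB against NC. Of 10 enzymes of oxysterols, bile acids and cholesteryl esters, Cyp27a1, the sterol 27-hydroxylase, rose by 0.61 ± 0.13 in DN and 0.71 ± 0.13 in DN+NaB. The oxysterol hydroxylase Cyp7b1 fell likewise (-1.85 ± 0.50 and -2.31 ± 0.51), and it is also 1 of the 6 S3 tubule markers, of which 5 fell and 1 rose in both comparisons with NC. In DN+NaB against NC, Cyp39a1, another oxysterol hydroxylase, fell (-1.43 ± 0.36), as did Nceh1, a cholesteryl ester hydrolase (-0.67 ± 0.15). The 3 genes of acetyl-CoA supply were not called.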

How the data were processed

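RNA-seq counts of 12 kidney cortex libraries, 4 in each of 3 groups, were analysed. Per the file header, the authors deposited 1 table of raw counts, with a row per gene symbol and a column per library. HISAT2 2.0.4, an aligner, is listed per the submitters' processing notes. Genome build, annotation, counting program, strand setting and treatment of multi-mapped reads: not given in the sources used here. Values of overlapping genes, antisense genes and near-identical copies are therefore uncertain.

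Low genes were removed with filterByExpr by group, a step that kept at least 99.95% of each library's counts, and libraries were scaled with TMM factors. All 12 entered 1 quasi-likelihood fit (edgeR 4.0.16, R 4.3.3, robust, group the only term). The call was an adjusted p (Benjamini-Hochberg, all tested genes) under 0.05. CPM use TMM-scaled library sizes and compare libraries, not genes, since length is not corrected. The script was tested on simulated counts. DESeq2 1.42.0, other scalings and filters, 2-group fits, a replicate block and leaving out each library were the alternatives. Copies were searched with blastn 2.17.0 in GENCODE transcripts.

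The 30 genes and all lists were chosen with earlier results of these data known. All 30 genes are named. Values per library are given for genes called, or with groups that do not overlap, in a comparison, and also, after they were seen, for Abca1. From each other list up to 3 called genes per direction and comparison are named, by smallest adjusted p. Some genes of the pathway are not reported here. No batch, date or animal is labelled.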

Additional observations from a re-analysis of the deposited data

Results flagged for a closer look

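Among the 90 gene and group combinations of the 30 genes, 8 had 1 library far from the other 3, with a gap to the nearest one past Dixon's 95% critical value. Chance gives about 1 in 20 of such groups. DN replicate 4 made up 3 of them: Abca1 at 237.8 CPM (others 61.7 to 89.7), Abcg1 at 37.84 CPM (others 13.9 to 17.15) and Cyp51 at 24.79 CPM (others 52.55 to 58.04). The macrophage, fibroblast and erythroid markers of that library stood at 283, 413 and 247 summed CPM. The other DN libraries had 147 to 169, 88.9 to 113 and 6.19 to 10.5. The part of these cells in these values was not tested. NC replicate 4 was high for Insig1 at 36.64 CPM (others 25.3 to 27.0) and low for Pmvk at 6.602 CPM (others 11.0 to 11.9). In DN+NaB, Nr1h2 was 82.85 CPM in replicate 1 (others 91.1 to 91.6), Srebf2 was 254.7 CPM in replicate 2 (others 200.2 to 209), and Stard4 was 46.94 CPM in replicate 3 (others 42.2 to 42.8).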

How the results depend on the processing

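Each result was recomputed under 19 alternatives. Of 570 gene values per comparison, 17 lost and 10 gained a call in DN against NC, 0 and 1 in DN+NaB against DN, and 4 and 17 in DN+NaB against NC. No called value changed sign. Among values not called there were 33, 21 and 18 changes of sign, in genes whose main value was at most 0.195 from 0. For DN against NC, where 2 of the 30 were called higher and 3 lower, library size scaling gave 1 and 5, the 2 groups alone gave 0 higher, and the replicate block gave 1 higher and 4 lower. For DN+NaB against DN, where 4 genes of all were called, RLE factors gave 22, library size 26, no filter 27, a filter of 1 CPM in 4 libraries 17, DESeq2 257 (1 of the 30, lower), the 2 groups alone 0 and the replicate block 7. For DN+NaB against NC, library size, the 1 CPM filter and DESeq2 each gave 5 of the 30 lower in place of 3, and the 2 groups alone gave 6 lower and 2 higher in place of 1. Library size scaling moved the median of all genes to -0.12 there, and split calls 875 higher to 2070 lower in place of 1161 to 1568; in DN against NC it gave 503 to 1103 in place of 669 to 774. The cause was not tested.

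Without 1 library at a time, counts over all genes were 942 (without NC replicate 1) to 1976 in DN against NC (1443 with all), 0 to 67 (without DN replicate 3) in DN+NaB against DN, and 1833 to 3716 in DN+NaB against NC (2729 with all). DN+NaB against DN had 0 calls without NC replicate 1 or 2, DN replicate 1 or DN+NaB replicate 1 or 4. The 30 genes gave 0 to 2 higher and 2 to 6 lower (6 without DN replicate 1), then 0 and 0, then 1 to 2 higher (2 without DN replicate 3) and 2 to 6 lower (6 without DN replicate 4). Listed pathway genes called were 9 to 14, 0, and 13 (without NC replicate 1 or DN+NaB replicate 2) to 24. Same-numbered libraries correlated at -0.245 to 0.269, over 0.1 in 6 of 12 pairs, and 13 of 24 library and group combinations were closest to their own number. As not every pair was over 0.1, the numbers were not taken to pair the libraries. Replicate 4 pairs were at 0.2 (NC with DN), 0.224 (NC with DN+NaB) and 0.269 (DN with DN+NaB). DN with DN+NaB was at -0.21 for replicate 1 and -0.245 for replicate 3. Whether same-numbered libraries share a batch was not tested. The block called Mvd lower in both comparisons with NC (adjusted p = 0.0414 and 0.0425). The SE of a log2 fold change over the 30 genes ran from 0.09 to 0.40 (median 0.18), which limits what could be called.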

Other observations

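Transcripts at least 90% identical over at least 200 bases to those of another gene were found for 6 of the 30 genes, in a search made after the values were seen. Acat2 and Acat3 were 97.7% identical over 1477 bases. Acat3 had 9.99 ± 2.15, 19.7 ± 11.8 and 16.8 ± 3.53 CPM in NC, DN and DN+NaB, and how reads shared with Acat2 were assigned is not known. Their sum was 87.4 ± 15.1, 99.1 ± 35.2 and 95.5 ± 16.9 CPM, again overlapping between groups. Idi1 shares sequence with Gm35570, at 6 to 59, 3 to 77 and 6 to 47 counts per library in NC, DN and DN+NaB. Idi1 itself had 125 to 178, 38 to 70 and 43 to 113. Another copy, Gm13502, was identical to Idi1 over the whole aligned stretch and had 0 counts in every library. How reads shared with these copies were assigned is not known. The counts of the copies therefore do not bound the uncertainty of the Idi1 values. The other 4 genes with such a copy were Fdps, Fdft1, Tm7sf2 and Sc5d. No such copy was found for Hmgcs1, Cyp51, Nsdhl, Sqle or Abcg1.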
